A study of Homo sapiens with 7 samples.

Results

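The microRNAs described here come from 3 gene clusters that are known for their activity in the placenta and in embryonic stem cells. The primate-specific cluster C19MC on chromosome 19 is imprinted, is transcribed from the paternal allele, and supplies many of the microRNAs of the trophoblast. The short miR-371 to miR-373 cluster lies downstream of it on the same chromosome, and the miR-302 and miR-367 cluster lies on chromosome 4. Both are known for their high levels in embryonic stem cells and germ cell tumors, where several of their products share a seed (bases 2 to 8, with which a microRNA pairs to its targets) close to that of the miR-17 family, which promotes progression of the cell cycle. In most adult tissues all 3 clusters are silent.

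The members were every human assay on the card for miR-498, miR-512 and miR-515 through miR-527, together with miR-302a to miR-302d, miR-367 and miR-371 to miR-373, with any letter or arm. This rule used names and no measured value, but it was chosen with earlier results of these data known. It found 42 of the 377 human microRNA assays, of which 35 belong to C19MC, 3 to the miR-371 to miR-373 cluster and 4 to the miR-302 and miR-367 cluster. The 38 chromosome 19 members and the 4 chromosome 4 members are given apart.

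MicroRNA was measured in 3 oligometastatic L1-R2 lines, named 4T, 3T and 8T, and in 4 polymetastatic L1Mic-R2 lines, named 2T, 3T, 7T and 8T. All 7 derive from MDA-MB-435-GFP, a human tumor cell line of melanoma origin, long used as a breast cancer line, that carries green fluorescent protein and was selected with G418. Each line was grown from the lung of a distinct athymic female mouse, after injection of L1-R1 cells (first taken from visible lung metastases) or L1Mic-R1 cells (first taken from the metastasis-free rest of the lung). The lines therefore differ in this history as well as in their oligo- or polymetastatic behavior. The paper took L1-R1 and L1Mic-R1 from the lung of the same animal, and each group descends from 1 of these parent lines. The spread within a group is thus that among lines of 1 parent. RNA from each line was run on 1 TaqMan Array A card, and the variation of a line from that of its card cannot be separated. The value of a well is its threshold cycle (Ct), the PCR cycle at which fluorescence crosses a set threshold. At full efficiency, Ct falls by 1 with each doubling of the RNA. An Undetermined well never crossed the threshold and is listed at 40, and a microRNA is called detected here when its raw Ct was below 38.

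In RefSeq (GRCh38.p14), the matched C19MC members lie on the plus strand at chr19:53666692-53762418, over 95.73 kb, with DPRX on one side of the chromosome 19 clusters and NLRP12 on the other. The miR-371 to miR-373 members follow after a gap of 25.3 kb, at chr19:53787716-53788770 on the same strand. The miR-302 and miR-367 members lie within 635 bases on the minus strand, at chr4:112647877-112648511, inside the spans of LARP7 and of the host transcript MIR302CHG. Mature sequences in RefSeq were matched for 40 of the 42 assays (miR-518f and miR-522 were not matched). Of the matched names, 10 have more than 1 gene copy, so that for these a Ct cannot be assigned to a single locus. This count is by name and leaves out miR-517a and miR-517b, whose equal mature sequences come from the separate genes MIR517A and MIR517B.

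The sequences below are those of members with a detected well and of some of their close relatives on the card. They are shown because nearly equal sequences decide which readings can be set side by side. Not shown is miR-519e, which differs from miR-520f by 2 bases and was Undetermined on every card. Capitals mark the seed. The embryonic stem-cell microRNAs of the first group share the seed AAGUGCU, and of these miR-372 and miR-302b were detected whereas miR-302a and miR-302c were not. The same seed belongs to miR-373 and to the C19MC members miR-520a-3p, miR-520b and miR-520e, which are not shown and were Undetermined on every card.
miR-372: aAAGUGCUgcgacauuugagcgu
miR-302a: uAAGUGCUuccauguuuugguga
miR-302b: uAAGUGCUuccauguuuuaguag
miR-302c: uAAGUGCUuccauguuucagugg

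The next member carries AAAGUGC, the seed of the miR-17 family, represented by miR-17 itself.
miR-519d: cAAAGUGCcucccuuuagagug
miR-17: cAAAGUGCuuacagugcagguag

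The following C19MC members resemble each other over most of their length. The mature sequences of miR-517a and miR-517b are equal in all 22 bases, miR-517c differs from them by 1 base, and miR-519a differs from miR-517c by 2 bases but has another seed, which it shares with miR-519c-3p.
miR-517a: aUCGUGCAucccuuuagagugu
miR-517c: aUCGUGCAuccuuuuagagugu
miR-519a: aAAGUGCAuccuuuuagagugu
miR-519c-3p: aAAGUGCAucuuuuuagaggau

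The remaining detected C19MC members with a matched sequence have seeds found in no other matched member, except miR-518b, whose seed AAAGCGC is that of 4 matched members.
miR-518b: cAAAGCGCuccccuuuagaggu
miR-518e: aAAGCGCUucccuucagagug
miR-520f: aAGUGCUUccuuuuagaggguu
miR-512-3p: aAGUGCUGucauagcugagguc
miR-523: gAACGCGCuucccuauagagggu
miR-525-3p: gAAGGCGCuucccuuuagagcg

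The 6 bases AAGUGC occurred within the first 10 bases of 16 of the 40 matched members, and within those of 31 of the 2370 mature human microRNAs in the RefSeq table (1.31%). That table includes the members, which were chosen by name, so these shares are a description only. The 6 bases occurred in 10 of 33 C19MC members, in 3 of 3 members of the miR-371 to miR-373 cluster and in 3 of 4 members of the miR-302 and miR-367 cluster. Members with this core were found both among the detected microRNAs (miR-372, miR-302b, miR-519a, miR-519d, miR-520f and miR-512-3p) and among those Undetermined on every card (miR-373 and miR-520b, among others).

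Few members of the clusters were detected in these lines. Of the 38 chromosome 19 members, 11 were detected in at least 1 line (28.9%), against 225 of all 377 human microRNAs (59.7%). Of these 11, 7 were detected in 1 line and 4 in 3 lines, and 0 of 38 were detected in all 7 lines, where 135 of the 377 human microRNAs (35.8%) were. Counted by well, 19 of 266 chromosome 19 wells were detected (7.14%), against 1196 of 2639 wells of all human microRNAs (45.3%). Of the 4 members of the miR-302 and miR-367 cluster 1 was detected, in 1 of 28 wells.

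Where a member was detected, it was late. The 20 detected wells of the 42 members had raw Ct from 33.65 to 37.94, with a median of 36.24, and 4 of them were below 35. They came 3.01 to 7.62 cycles after the median detected microRNA of their own card. The earliest of them, miR-522 in L1Mic-R2 line 7T, ranked 122 among the 172 microRNAs detected on its card. A further 13 wells had a Ct from 38 to 40, and 261 of the 294 wells were Undetermined.

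**Figure D1:**
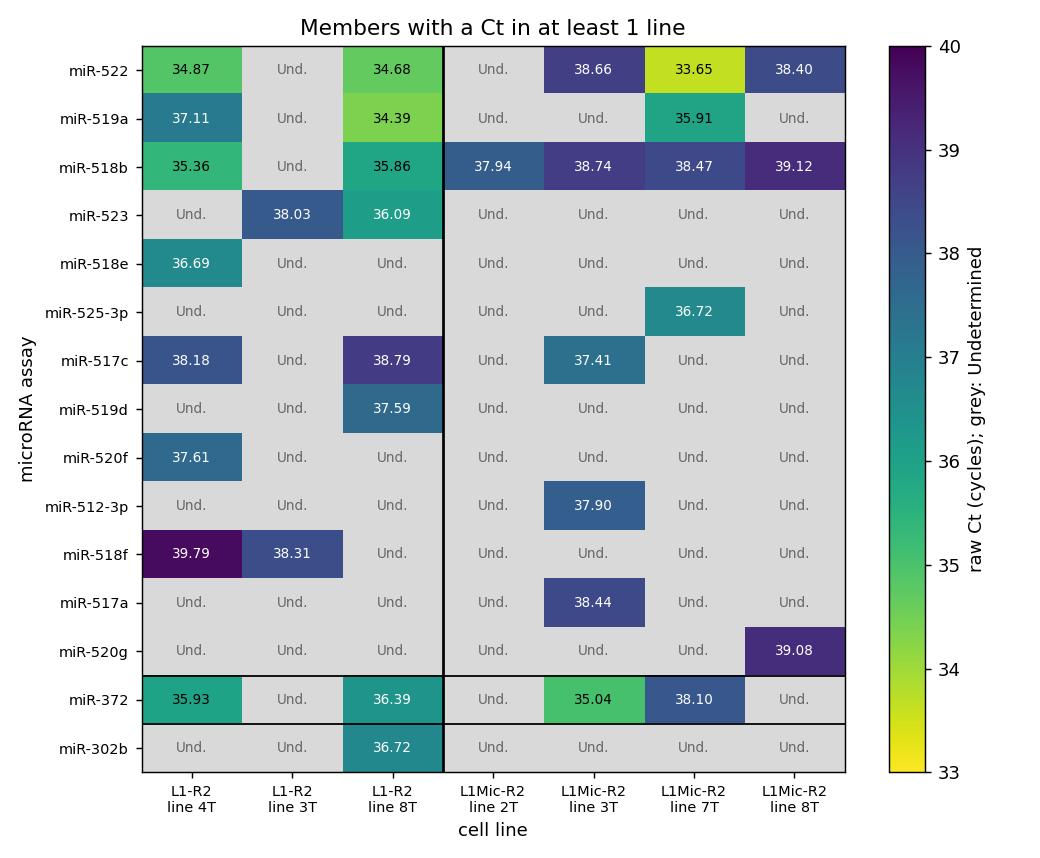
Raw Ct in cycles (color, lower is more RNA) of the 15 members with a Ct in at least 1 line, by cell line; grey marks Undetermined wells, the vertical line parts L1-R2 from L1Mic-R2, and the horizontal lines part C19MC, miR-372 and miR-302b. Most cells are grey, the lowest Ct is 33.65 (miR-522, L1Mic-R2 line 7T), and L1-R2 lines 4T and 8T hold the most colored cells.

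Among the C19MC members, miR-522 reached the lowest Ct. In the L1-R2 lines its raw Ct was 34.87 (4T), Undetermined (3T) and 34.68 (8T), and in the L1Mic-R2 lines it was Undetermined (2T), 38.66 (3T), 33.65 (7T) and 38.40 (8T). The earliest and an Undetermined well both belonged to L1Mic-R2 lines, and the groups overlapped.

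The second C19MC member found in 3 lines was miR-519a, encoded by MIR519A1 and MIR519A2 in the distal part of the cluster. Its raw Ct was 37.11 (4T), Undetermined (3T) and 34.39 (8T) in L1-R2, and among the L1Mic-R2 lines it had a Ct in line 7T only, at 35.91. Its seed relative miR-519c-3p, which differs from it by 3 bases, was Undetermined on all 7 cards.

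The member with a Ct in the largest number of lines was miR-518b. Its raw Ct was 35.36 (4T), Undetermined (3T) and 35.86 (8T) in L1-R2, and 37.94 (2T), 38.74 (3T), 38.47 (7T) and 39.12 (8T) in L1Mic-R2. Both L1-R2 lines with a Ct were earlier than all 4 L1Mic-R2 lines, while the L1-R2 line 3T was later than all of them. Among the matched members, miR-518a-3p, miR-518c and miR-518d-3p have the same seed, and these were Undetermined on all cards.

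The remaining detected C19MC members were found in 1 line each. In L1-R2 line 4T these were miR-518e (36.69) and miR-520f (37.61), and in L1-R2 line 8T they were miR-519d (37.59) and miR-523 (36.09), the last with a further Ct of 38.03 in line 3T. In L1Mic-R2 line 3T they were miR-512-3p (37.90) and miR-517c (37.41), the last with Ct of 38.18 and 38.79 in L1-R2 lines 4T and 8T. In L1Mic-R2 line 7T miR-525-3p was detected, at 36.72. Every well of these 7 members that is not named here was Undetermined.

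The members miR-517a (38.44 in L1Mic-R2 line 3T), miR-518f (39.79 and 38.31 in L1-R2 lines 4T and 3T) and miR-520g (39.08 in L1Mic-R2 line 8T) had a Ct but were below 38 in no line. The mature sequences matched by name to miR-517a and miR-517b are equal, but the sequences that the assays read were not given. In L1Mic-R2 line 3T the miR-517a assay gave a Ct of 38.44 while the miR-517b assay was Undetermined. In the same line miR-517c, 1 base away, gave 37.41. In L1-R2 lines 4T and 8T miR-517c had a Ct while miR-517a and miR-517b were Undetermined. Whether these 3 assays tell such close sequences apart was not tested, so it is not known whether their Ct come from separate microRNAs.

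In the miR-371 to miR-373 cluster miR-372 alone had a Ct. It was 35.93 (4T), Undetermined (3T) and 36.39 (8T) in the L1-R2 lines, and Undetermined (2T), 35.04 (3T), 38.10 (7T) and Undetermined (8T) in the L1Mic-R2 lines. The lowest Ct was in an L1Mic-R2 line, and both groups also held Undetermined wells. Its neighbors miR-371-3p and miR-373, the second with the same seed and encoded within the same 1055 bases, were Undetermined on all 7 cards.

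On chromosome 4, the miR-302 and miR-367 cluster gave a single Ct. It was that of miR-302b, 36.72 in L1-R2 line 8T, with a fluorescence of 1.42 against the threshold of 0.3. Its companions miR-302a and miR-302c, which differ from it by 3 and 2 bases and come from the same transcript, were Undetermined in that line and in the other lines, as was miR-367. The count of detected members was thus 0, 0 and 1 in L1-R2 and 0 in each of the 4 L1Mic-R2 lines, and no member was detected often enough to be tested.

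In all, 27 of the 42 members were Undetermined on every card. On chromosome 19 these were miR-371-3p, miR-373, miR-512-5p, miR-515-3p, miR-515-5p, miR-516a-5p, miR-516b, miR-517b, miR-518a-3p, miR-518a-5p, miR-518c, miR-518d-3p, miR-518d-5p, miR-519c-3p, miR-519e, miR-520a-3p, miR-520a-5p, miR-520b, miR-520d-5p, miR-520e, miR-521, miR-524-5p, miR-525-5p and miR-526b, and on chromosome 4 they were miR-302a, miR-302c and miR-367.

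The files also list for each well an unlabeled number that was above the threshold of 0.3 in every well with a Ct and below it in every Undetermined well, and that is read here as the fluorescence of the well. Over the wells of the 27 members without a Ct its median was 0.0233 and its highest value 0.199 (miR-520a-3p in L1Mic-R2 line 2T). Among the 261 Undetermined wells of all members, 244 were below 0.1 and 4 were above 0.2. These 4 were miR-512-3p in L1Mic-R2 line 7T (0.295), miR-518b in L1-R2 line 3T (0.281), miR-518e in L1-R2 line 3T (0.256) and miR-517c in L1Mic-R2 line 7T (0.221). All 4 belong to members with a Ct in another line. For miR-518b the well of L1-R2 line 3T thus lay just under the threshold, and its value of 40 is a limit rather than a measured level.

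**Figure D2:**
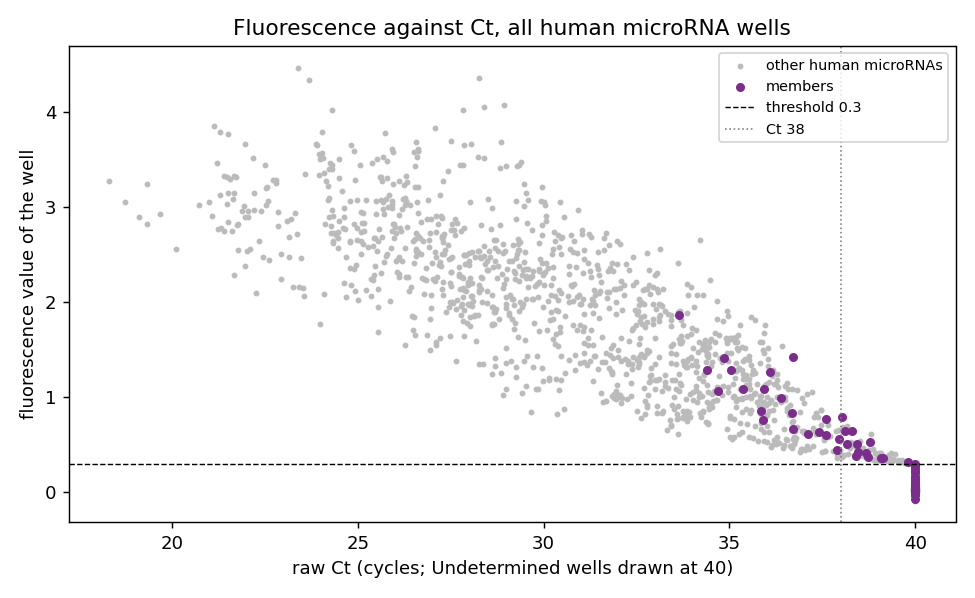
Fluorescence value of each well against its raw Ct in cycles for all human microRNAs on the 7 cards (grey) and for the 42 members (purple), with Undetermined wells drawn at 40; the dashed line is the threshold of 0.3 and the dotted line is Ct 38. Member wells lie at the late end, from 33.65 onward, and most sit at 40 below the threshold.

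The detected chromosome 19 members were unevenly spread over the lines. Their number was 6 (4T), 0 (3T) and 6 (8T) in L1-R2, and 1 (2T), 3 (3T), 3 (7T) and 0 (8T) in L1Mic-R2. The mean was 4 ± 3.46 (SD, n = 3) against 1.75 ± 1.5 (SD, n = 4), a difference of -2.25 members (L1Mic-R2 minus L1-R2), which is smaller than the spread among the L1-R2 lines, and the groups overlapped. Without L1-R2 line 3T the difference was -4.25, and without line 4T or line 8T it was -1.25. It also depended on the scale, because quantile normalization moves late wells across Ct 38. On normalized Ct the counts were 3, 0 and 5 in L1-R2 and 1, 4, 3 and 3 in L1Mic-R2, with a difference of 0.0833.

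The lines also differed in how many other microRNAs they held only intermittently. Of the 78 human microRNAs outside the clusters that were detected in some but not all lines, 55.1% (4T), 47.4% (3T) and 44.9% (8T) were detected in L1-R2, and 35.9% (2T), 37.2% (3T), 43.6% (7T) and 32.1% (8T) in L1Mic-R2. These shares were higher in each L1-R2 line than in any L1Mic-R2 line. L1-R2 line 3T had 0 members at a share of 47.4%, and L1-R2 line 8T had 6 at 44.9%. The shares depended on the set chosen. A second set held the 78 detected human microRNAs, members included, whose Ct was never below 33.65. Its shares were 55.1% (4T), 37.2% (3T) and 42.3% (8T) in L1-R2. They were 29.5% (2T), 34.6% (3T), 39.7% (7T) and 29.5% (8T) in L1Mic-R2, and there the groups overlapped. Raw Ct of the small RNA U6 was 15.97, 16.60 and 16.39 in L1-R2 and 16.36, 16.22, 16.15 and 16.77 in L1Mic-R2, lowest in L1-R2 line 4T and highest in L1Mic-R2 line 8T. Raw Ct of the control RNU44 was 23.67, 25.59 and 24.82 in L1-R2 and 25.75, 25.30, 25.29 and 25.97 in L1Mic-R2. That of RNU48 was 18.81, 20.33 and 20.34 in L1-R2 and 20.75, 20.42, 20.07 and 20.97 in L1Mic-R2. Both were also lowest in L1-R2 line 4T and highest in L1Mic-R2 line 8T. The part of these shares and control levels in the number of members detected was not tested.

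**Figure D3:**
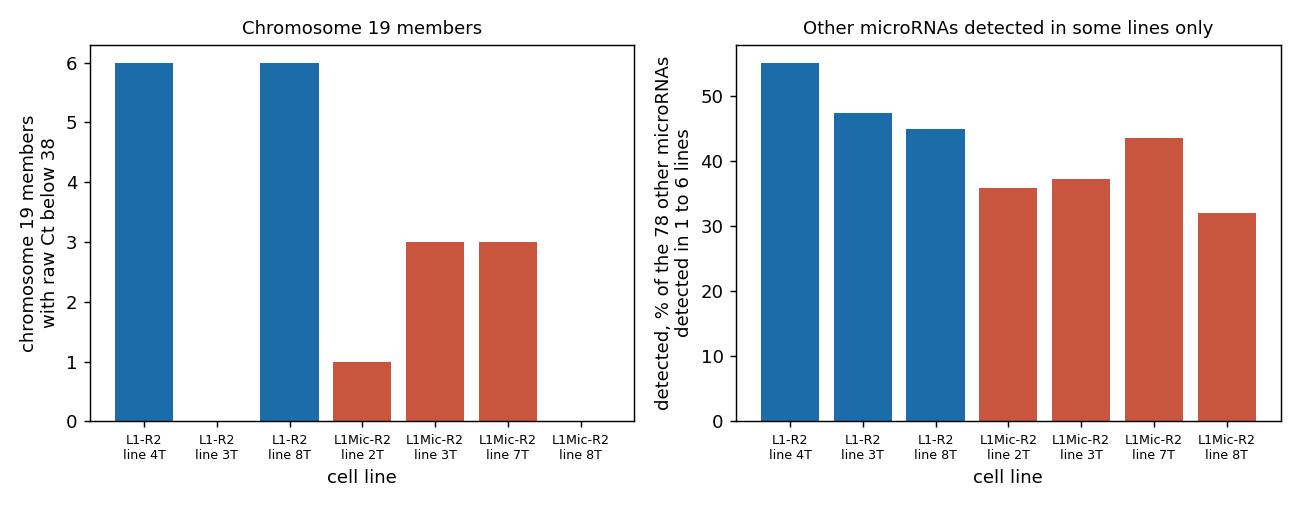
Left, number of the 38 chromosome 19 members with raw Ct below 38 in each line (blue, L1-R2; red, L1Mic-R2); right, percent of the 78 other human microRNAs detected in 1 to 6 lines that were detected in each line. Lines 4T and 8T of L1-R2 have 6 members each, while 3T of L1-R2 has 0 members at a share of 47.4% and 8T of L1Mic-R2 has 0 members at 32.1%.

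L1-R2 lines 4T and 8T shared miR-372, miR-518b, miR-519a and miR-522, which is 4 of the 6 members detected in line 4T (66.7%) and 4 of the 7 detected in line 8T (57.1%). L1Mic-R2 lines 3T and 7T had 3 detected members each and shared 0. Only miR-518b, at 37.94, was detected in L1Mic-R2 line 2T.

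Whether any member differed between oligo- and polymetastatic lines could be asked of the 4 chromosome 19 members detected in at least 3 of the 7 lines, namely miR-372, miR-518b, miR-519a and miR-522. The moderated test of limma was fitted to quantile-normalized Ct over the 181 microRNAs that met this filter, with Undetermined wells kept at 40, so that every group mean of these members rests partly on wells without a measured level, except that of miR-518b in L1Mic-R2, where every line had a Ct. At an adjusted p (Benjamini-Hochberg) under 0.05, 0 of the 4 members were called, beside 9 of the 181 microRNAs (4.97%). At an unadjusted p under 0.05, 0 of 4 members were called, beside 35 of 181 (19.3%), and in 0 of 4 the groups did not overlap, beside 35 of 181 (19.3%). The methods' t-test, which the paper describes for its tumor samples, called 0 of 4 members before adjustment, beside 35 of 181 microRNAs. After adjustment it called 0 of 4, beside 0 of 181. A count of 0 of 4 is near what these background shares give, and is no result about the clusters.

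On the log2 scale (L1Mic-R2 minus L1-R2, a positive value standing for more RNA in L1Mic-R2), miR-519a differed by -1.25 (SE 1.54), with a 95% interval from -4.99 to 2.49 (limma adjusted p = 0.718). The intervals of the others were similarly wide, from -3.49 to 1.96 around -0.76 for miR-518b, from -4.95 to 4.12 around -0.42 for miR-522 and from -4.64 to 3.09 around -0.77 for miR-372. All 4 intervals include 0, and none of them is narrow enough to show that the levels are alike. The standard errors, 1.12 to 1.86, compare with a median of 0.386 over all 181 microRNAs tested, and the median difference over all of these was 0.06.

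These values turned on single lines. All 4 members were Undetermined in L1-R2 line 3T, where the miR-518b well ended just under the threshold. Without that line, miR-518b differed by -2.15 (limma, unadjusted p = 0.00558, adjusted p = 0.10), against an adjusted p of 0.737 with it. The differences of miR-519a, miR-372 and miR-522 were then -2.33, -1.89 and -2.04 (limma adjusted p = 0.491, 0.634 and 0.634). At an unadjusted p under 0.05, 1 of 4 members was called in this setting, beside 36 of 178 microRNAs. At the adjusted threshold 0 of 4 members and 0 of 178 microRNAs were called. For miR-522, omitting L1Mic-R2 line 2T instead turned the difference to 0.63.

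Seed relatives outside the clusters were present throughout. The miR-17 family members miR-17, miR-20a, miR-20b, miR-93, miR-106a and miR-106b, which carry the AAAGUGC seed of miR-519d in all 6 cases, come from clusters active in dividing cells. They were detected in all 7 lines, with raw Ct of 21.29 to 22.05 for miR-17, 25.72 to 26.37 for miR-20a, 24.24 to 24.99 for miR-20b, 25.49 to 26.26 for miR-93, 21.13 to 21.98 for miR-106a and 26.60 to 27.72 for miR-106b. The single detected well of miR-519d was at 37.59. Assays differ in efficiency, so that these Ct values do not measure the ratio of the microRNAs.

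Among the 6 relatives, 0 passed an adjusted p of 0.05 and 1, miR-20b, passed an unadjusted p of 0.05, beside 19.3% of all tested. Raw Ct of miR-20b was 24.57 (4T), 24.99 (3T) and 24.49 (8T) in L1-R2, and 24.34 (2T), 24.29 (3T), 24.24 (7T) and 24.69 (8T) in L1Mic-R2, where line 8T overlaps with L1-R2. After quantile normalization the groups did not overlap and miR-20b was higher in L1Mic-R2 by 0.62 (SE 0.18, limma adjusted p = 0.105). With a trended and robust prior variance the adjusted p was 0.0316, in a setting that called 21 of the 181 microRNAs. On raw Ct miR-20b differed by 0.29 and after normalization to U6 by 0.35 (limma adjusted p = 0.535 and 0.327). The others differed by 0.24 (miR-17, SE 0.17), -0.13 (miR-20a, SE 0.14), 0.46 (miR-93, SE 0.19), 0.10 (miR-106a, SE 0.15) and 0.01 (miR-106b, SE 0.18), with limma adjusted p from 0.245 to 0.976. The direction of miR-20a turned with normalization to RNU44 and RNU48 (0.50), and that of miR-106b turned on raw Ct (-0.19) and with normalization to U6 (-0.13).

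**Figure D4:**
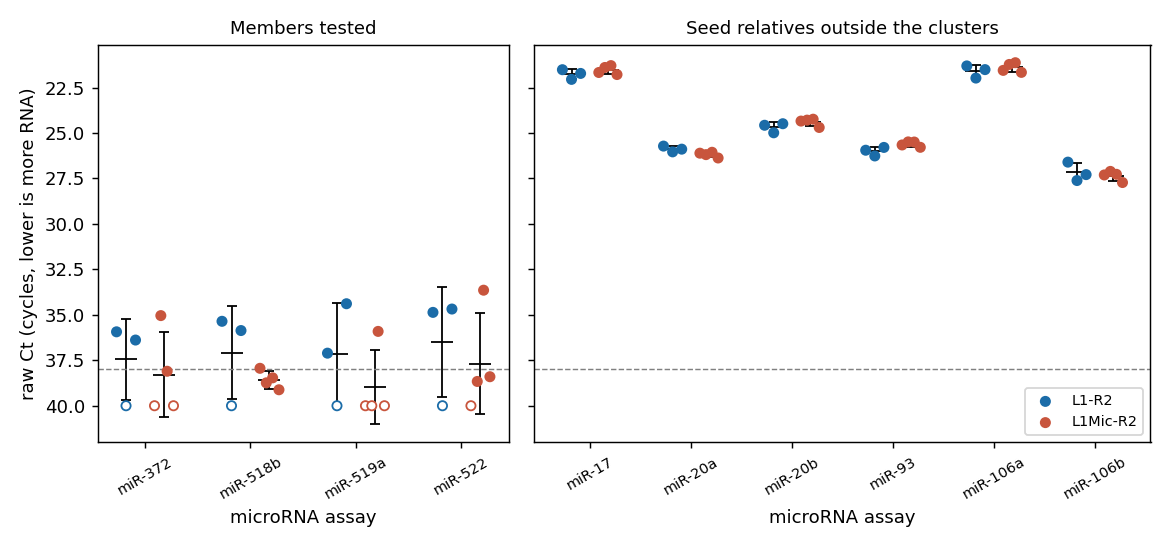
Raw Ct in cycles (axis inverted, so that more RNA is higher) of the 4 members tested and of the 6 seed relatives in each L1-R2 (blue) and L1Mic-R2 (red) line; open points are Undetermined wells drawn at 40, bars are group means with SD, and the dashed line is Ct 38. The seed relatives lie at 21.13 to 27.72 with little spread, and the members lie from 33.65 to 40 with groups that overlap.

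Cells other than the tumor cells could be present, since the lines were grown from mouse lung. Of 7 microRNAs of blood, endothelium and stroma, miR-143, miR-145, miR-142-5p and miR-451 were Undetermined on all cards, miR-142-3p had a Ct in L1-R2 lines 4T and 3T (35.93 and 36.03), and miR-223 had a Ct of 37.37 (4T) and 38.86 (8T) in L1-R2 and of 35.42 (2T), 35.35 (3T) and 36.07 (8T) in L1Mic-R2. The endothelial miR-126 was detected in every line, at 34.50, 32.46 and 35.06 in L1-R2 and at 30.98, 31.75, 28.71 and 32.41 in L1Mic-R2. The part of these microRNAs in the members' values was not tested. The melanocyte-linked miR-204 was detected in all 7 lines (25.79 to 26.92), and miR-211 in all but L1Mic-R2 lines 2T and 8T. The files number the cards from 1 to 3 for L1-R2 and from 4 to 7 for L1Mic-R2, with no run date used here, so that any effect that follows these numbers and the group cannot be told apart.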

How the data were processed

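MicroRNA of 3 L1-R2 and 4 L1Mic-R2 lines was reverse transcribed and measured on TaqMan Human MicroRNA Array A cards, 1 card per line. The authors deposited raw Ct values, in cycles on a log2 scale, at a threshold of 0.3, with Undetermined wells at 40, as well as a further unlabeled number per well (used as the other unit of the deposited files and read as fluorescence). Groups and line names follow the labels, in which the numbers of L1-R2 lines 3T and 4T are exchanged against the names of the files. The labels mention SYBR and the mammary fat pad, and the paper TaqMan assays and tail vein injection, which were followed.

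Quantile normalization (limma 3.58.1, R 4.3.3) was applied to the Ct of 381 assays on all 7 cards. MicroRNAs with a raw Ct below 38 in at least 3 lines (181 of 377) were compared by the linear models and moderated statistics of limma, fitted to 40 minus Ct and adjusted by Benjamini-Hochberg. Numbers of detected members were compared by mean and SD, with no test. Precision is limited by the number of cards. Functions were tested on simulated data.

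Every member with a raw Ct below 38 in at least 1 line is named with all its values, the others once. Seed relatives and marker microRNAs were taken from fixed lists. The members and lists were chosen with earlier results of these data known. Sequences and positions are from RefSeq (GRCh38.p14), matched by name, with assays without an arm assigned by older naming. The alternatives replaced quantile normalization by none, by U6, by RNU44 with RNU48 or by the mean of always detected microRNAs, limited Ct to 38 or 35, changed filter or fit, added a replicate block, or left out a line. Both groups hold a line 3T and a line 8T, but same-numbered lines did not deviate together (correlation -0.044 and -0.197).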

Additional observations from a re-analysis of the deposited data

Results flagged for a closer look

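Among the 4 L1Mic-R2 lines, 6 values of chromosome 19 members stood far from the other 3 lines by Dixon's test, each because 1 line had a Ct while the others were Undetermined (listed at 40). Line 3T gave miR-512-3p at 37.90, miR-517a at 38.44 and miR-517c at 37.41, line 7T gave miR-519a at 35.91 and miR-525-3p at 36.72, and line 8T gave miR-520g at 39.08. Chance alone would flag about 1 in 20 groups, or 0.8 of the 16 values examined, but this rate assumes measured values, whereas any single Ct among wells set to 40 is found by construction.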

How the results depend on the processing

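The number of chromosome 19 members called between the groups was 0 under all 16 alternatives that could be run. The number of all microRNAs called, 9 with the chosen settings (35 unadjusted), was 0 with normalization to RNU44 and RNU48 (37 unadjusted), with no detection filter (36), with the methods' t-test (35), with a replicate block by the numbers of the labels (19) and, chosen after seeing the data, by those of the file names (27). It was 14 over the microRNAs detected in all 7 lines, 21 with a trended and robust variance, and 0 to 4 when a line was left out (28 to 39 unadjusted). The difference in detected chromosome 19 members, -2.25, turned to 0.0833 on quantile-normalized Ct, was -1.92 and -0.75 below Ct 40 and 35, -1.5 with the replicate block (-4.5 by file names), and ranged from -4.25 to -1.25 without 1 line. For the miR-302 and miR-367 cluster it was -0.333, and -0.5 to 0 without 1 line, with -0.5 under the block.

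Of 172 values of single microRNAs, 160 changed neither direction nor call, 1 passed it (miR-20b, adjusted p = 0.0316) and 11 reversed. These were miR-522 with Ct limited to 35 (0.27), with the block (0.0125) and without L1Mic-R2 line 2T (0.63, from a range of -2.04 to 0.63 without single lines), miR-372 with the block (0.75), miR-20a with RNU44 and RNU48 (0.50), and miR-106b on raw Ct (-0.19), with U6 (-0.13), with the block by file names (-0.11) and without single lines (-0.11 to 0.15). The cause was not tested. With the block by file-name numbers, miR-518b and miR-522 differed by -2.24 and -2.36 (limma unadjusted p = 0.0179 and 0.0352, adjusted p = 0.294 and 0.318). The median over all microRNAs tested was -0.25 on raw Ct, -0.19 after U6 and 0.56 after RNU44 and RNU48, against 0.06 with the chosen settings. No value could be had for miR-372 and miR-518b with Ct limited to 35, where all lines are at the limit, nor for members that fail the filter without a line. The same numbers do not show that lines are pairs. A late Ct depends on few molecules, so that a member Undetermined in a line was not detectable in that well rather than absent.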
